A study of Mus musculus with 6 samples.

Results

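Homeostatic microglia with low Apoe were 1353 of the 13614 central nervous system cells in the deposited table (9.94%, 95% interval 9.44 to 10.5). They were chosen by a rule on 8 genes, applied to the deposited values as they are. A cell was kept when C1qa, Ctss and Tyrobp, genes of mononuclear phagocytes, summed to at least 8, when the 4 homeostatic markers P2ry12, Tmem119, Siglech and Cx3cr1 summed to at least 3, and when Apoe was below 10. The comparison cells were all other cells with C1qa, Ctss and Tyrobp summing to at least 8, termed other myeloid-marked cells, of which there were 10128. The selected cells were thus 11.8% of the 11481 myeloid-marked cells (11.2 to 12.4). The 8 genes that chose the cells are given only as a description. All intervals are exact binomial 95% intervals and cover counting error only.

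Microglia are the resident phagocytes of the brain and spinal cord. In the healthy tissue they survey it with motile processes, sense nucleotides through purinergic receptors such as P2ry12, exchange signals with neurons through Cx3cr1, and depend on TGF-β and on signals through the receptor Csf1r. In demyelination and other disease they lose much of this gene programme and raise genes of lipid handling, phagocytosis and antigen presentation, among them Apoe, Spp1, Lpl, Cst7 and Clec7a, a state often termed disease-associated. Apoe encodes the lipid carrier apolipoprotein E, which astrocytes also make in the normal cord.

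Cells came from 6 single-cell libraries. These were 2 of Nd6 mice with EAE, 2 of WT mice with EAE, 1 of Nd6 healthy controls and 1 of WT healthy controls. EAE, an autoimmune demyelinating disease, was induced with a MOG peptide in female mice aged 8 to 20 weeks, and the EAE mice were taken at day 30 after immunization. Healthy controls could be of either sex, and the number of mice behind a library is not given in the sources used here. Nd6 mice have a single base changed in mt-Nd6, the mitochondrial gene of a complex I subunit, so the change is not limited to microglia. All mice were perfused with the transcription blockers actinomycin D and triptolide, which were also in the digestion buffer together with anisomycin. No cell type was sorted. The paper's methods describe spinal cords for these libraries, whereas its main text speaks of the entire central nervous system.

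The table does not tie cells to libraries. Each cell name holds a barcode and 1 of 6 numbers as a suffix, which no label links to a genotype or a disease state. The 6 sets of cells sharing a suffix are lettered A to F here by size (809 to 4633 cells). The sizes of sets A, C and E add up to the number of WT cells that the paper reports. Those of sets B, D and F add up to its number of Nd6 cells. This match was not used here, and no source used here gives a set's disease state. Genotypes, EAE mice and healthy controls were not compared, the table was treated as 1 pooled sample, and no test was run. Differences are given as ratios of mean deposited values per cell, with 2-fold as a limit of size. The deposited values are whole numbers. They add up to between 687 and 1578 in a cell, with a median of 547 genes above 0. They were not taken as raw UMI counts, and the sequencing depth is unknown. Of 13596 distinct barcodes, 18 occurred in 2 sets, and 2 of the 1353 selected cells carried such a barcode.

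The low-Apoe homeostatic cells lay almost wholly in 2 of the 6 sets. Set D held 714 of them (52.8%) and set E held 561 (41.5%). Set B held 49 and set F held 29. Sets A and C held none among 4153 and 1301 myeloid-marked cells. The lowest Apoe of these cells was 11 in set A and 16 in set C, so none met the Apoe limit, whatever its markers. The intervals, for counting error alone, reach 0.0888% and 0.283%. As a share of each set's myeloid-marked cells, they were 67.1% in set D (64.2 to 69.9) and 62.3% in set E (59.1 to 65.5), against 1.44% in set B (1.07 to 1.90) and 4.33% in set F (2.92 to 6.17). The sets thus fell into a pair in which most myeloid-marked cells met the rule and 4 in which few or none did.

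**Figure D1:**
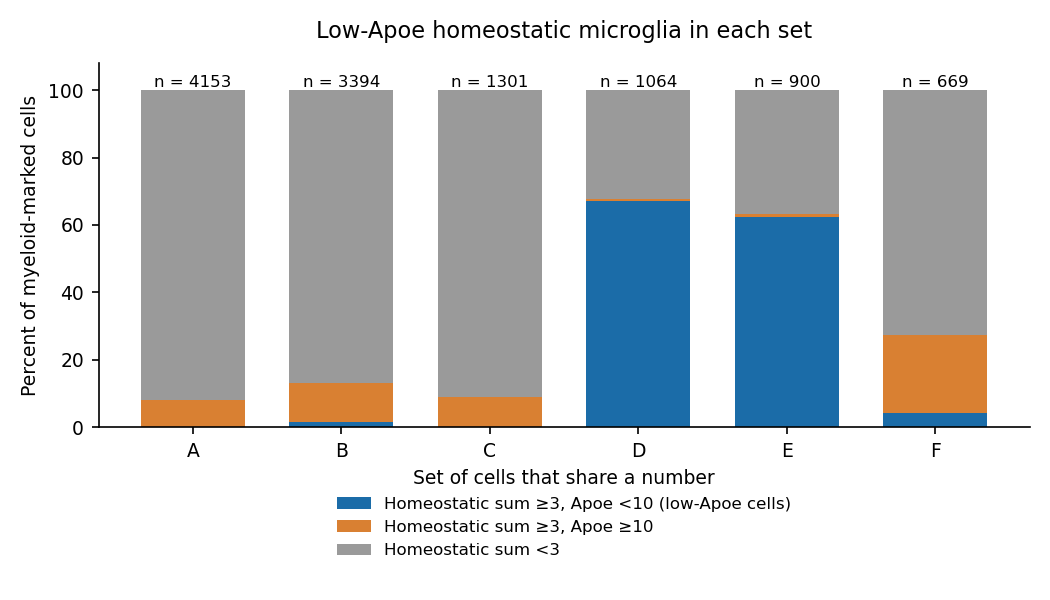
Myeloid-marked cells of each set of cells sharing a suffix, as a percent of the set's myeloid-marked cells (vertical axis) in stacked bars; blue, homeostatic marker sum at least 3 with Apoe below 10; orange, the same marker sum with Apoe at least 10; grey, marker sum below 3; the number of myeloid-marked cells stands above each bar. Blue fills 67.1% of set D and 62.3% of set E, and at most 4.33% of any other set.

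The marker part of the rule and the Apoe part each followed the sets. Cells whose homeostatic markers summed to at least 3, whatever their Apoe, were 67.8% and 63.1% of the myeloid-marked cells in sets D and E, against 8.07%, 12.96%, 8.92% and 27.2% in sets A, B, C and F. Of those homeostatic cells, Apoe was below 10 in 99.0% and 98.8% in sets D and E, in 11.1% in set B and 15.9% in set F, and in none in sets A and C. Across the sets there were 1009 cells that met the marker limit with Apoe at 10 or more, and these raised-Apoe homeostatic cells numbered 335, 391, 116, 7, 7 and 153 in sets A to F. Within sets D and E the Apoe limit removed only those 7 cells each, so that there the rule was in effect the marker limit alone.

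Apoe also differed between the sets outside the microglia. Among cells with almost no myeloid signal (C1qa, Ctss and Tyrobp summing to at most 2; 784 cells), the median of Apoe was 0 in sets D and E, against 18, 7, 19 and 8 in sets A, B, C and F. Apoe reached 10 in 0.694% and 0.465% of these cells in sets D and E, and in 86.0%, 29.5%, 89.4% and 24.6% in sets A, B, C and F. Endothelial-marked cells with Cldn5 at 3 or more, 7 to 26 per set, had medians of 0 in sets D and E against 12, 10, 17 and 5 in sets A, B, C and F. Apoe in a cell of these sets therefore moved together with Apoe in the non-myeloid cells of the same set, and the part of this in the rule's outcome was not tested.

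**Figure D2:**
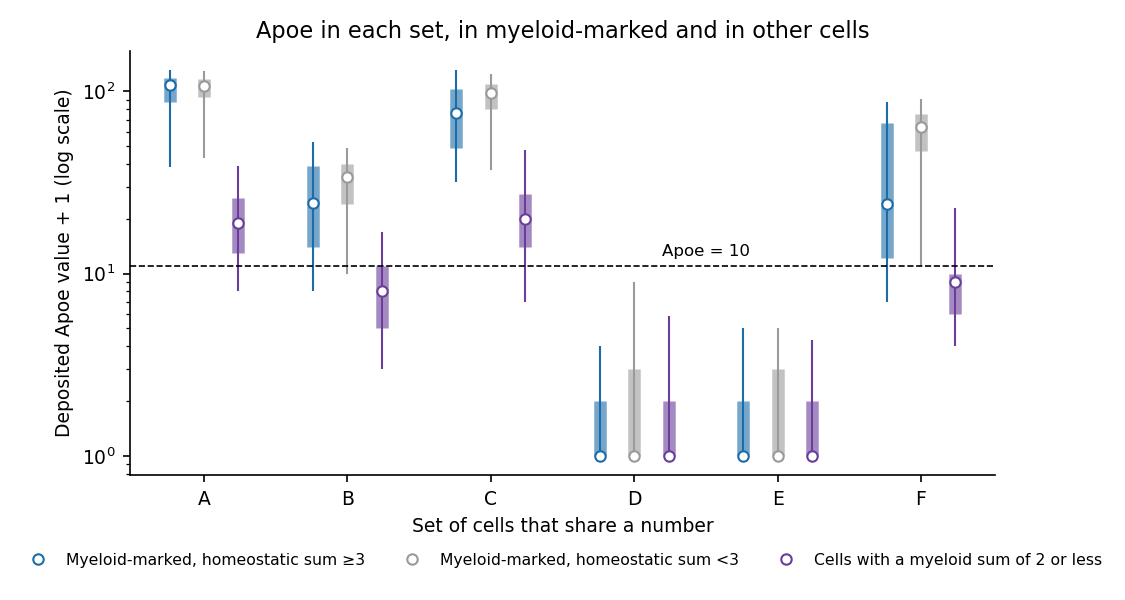
Apoe per cell, as the deposited value plus 1 on a log scale (vertical axis), by set; circle, median; thick line, 25% to 75% of cells; thin line, 5% to 95% of cells, for homeostatic myeloid-marked cells, other myeloid-marked cells with a marker sum below 3, and cells with almost no myeloid signal; the dashed line is Apoe of 10. In sets D and E all 3 kinds of cell sit at a median of 0, and in sets A and C the cells with almost no myeloid signal have medians of 18 and 19.

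Most of the selected cells carried no Apoe at all. Apoe was 0 in 814 of 1353 (60.2%, 57.5 to 62.8), with a mean of 1.05 against 66.7 in the other myeloid-marked cells. The zeros belonged to sets D and E, where 63.3% and 64.5% of the selected cells had none, and none of the 49 cells in set B or the 29 in set F did. The median was 0 in sets D and E and 7 in sets B and F. Cells at Apoe 7 to 9, close under the limit, were 63 of the 1353 (4.66%), of which 31 were in set B, 15 in set F, 8 in set D and 9 in set E. Just inside the limit there were 20, 20 and 23 cells at Apoe 7, 8 and 9, and just outside it 20, 32 and 16 cells at 10, 11 and 12. The limit thus kept nearly all homeostatic cells of sets D and E and only those with the lowest Apoe in sets B and F.

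The marker sum had no gap at its limit. Among myeloid-marked cells with Apoe below 10 there were 308, 287, 264, 277 and 217 cells at marker sums of 1 to 5, so the cut at 3 divided a continuous range. Cells at a sum of 3 had a median of 498 genes, those at 2 had 444 and those at 0 had 402. The selected cells had a median sum of 5 and a maximum of 19, and 264 of them (19.5%) stood exactly at 3. All 4 markers were above 0 in 318 cells (23.5%), 3 of them in 560 (41.4%), 2 in 413 (30.5%) and a single one in 62 (4.58%). Cx3cr1, the fractalkine receptor, was above 0 in 83.4% of the selected cells, P2ry12, a purinergic receptor, in 79.5%, Siglech, a sialic acid-binding lectin, in 68.7% and Tmem119, a membrane protein typical of microglia, in 52.3%. In sets D and E the order of the 4 was the same and in set F Cx3cr1 and P2ry12 were level, whereas in set B P2ry12 was above 0 in 57.1% and Tmem119 in 77.6%.

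The label was checked against 13 homeostatic markers that the rule did not use. All 13 were above 0 in some of the selected cells, a median of 7 of them per cell, and only 1 cell had none. Their summed mean was 20.6 in the selected cells and 6.53 in the other myeloid-marked cells. By set, the selected cells had 13.4, 21.3, 20.5 and 18.3 in sets B, D, E and F, and the other myeloid-marked cells had 5.45, 5.99, 5.84, 14.2, 14.4 and 9.33 in sets A to F. By genes outside the rule, the selected cells were therefore higher than the other cells of their own set in sets B, D, E and F. The selected cells of set B were nevertheless below the other myeloid-marked cells of sets D and E. Those other cells came closer to the selected cells of sets D and E than to the other myeloid-marked cells of sets A, B and C.

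Free RNA can give values in cells that do not express a gene, so shares of cells above 0 were set beside those in the 784 cells with almost no myeloid signal, whose median number of genes was 566 against 556 in the selected cells. Gpr34, a lysophosphatidylserine receptor of microglia, was above 0 in 65.5% of the selected cells (62.9 to 68.0), in 18.6% of the other myeloid-marked cells and in 5.10% of the cells with almost no myeloid signal. Csf1r was above 0 in 89.4%, 48.3% and 10.6% of these 3 kinds of cell, and Selplg, the ligand of P-selectin, in 70.7%, 24.6% and 10.1%. Cst3, the secreted protease inhibitor cystatin C, was above 0 in 100%, 99.8% and 83.3%, so for Cst3 the mean is the informative value (72.8, 15.9 and 3.21). Spp1, the secreted protein osteopontin, was above 0 in 6.02% of the selected cells of set D (4.39 to 8.03) and in 4.63% of those of set E (3.05 to 6.72), against 4.17% (1.54 to 8.85) and 3.26% (1.32 to 6.59) of the cells with almost no myeloid signal in the same sets. In sets B and F it was above 0 in 69.4% (54.6 to 81.7) and 34.5% (17.9 to 54.3) of the selected cells, against 59.0% (50.3 to 67.3) and 31.1% (19.9 to 44.3). These intervals overlap in all 4 sets, which does not show that the shares are equal. Whether Spp1 in the selected cells is free RNA or expression was not tested.

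Markers of other cell types were mostly lower in the selected cells than in the other myeloid-marked cells. The summed mean of 11 monocyte and macrophage markers was 0.101 against 1.18, and 7 of the 1353 cells reached a sum of 3. It stood at 0.0630 and 0.0660 in the selected cells of sets D and E and at 0.959 and 0.241 in those of sets B and F. Markers of T and NK cells summed to 0.00443 against 0.216, with Cd3g and Gzmb at 0, and those of dendritic cells to 0.00370 against 0.0444, with Cd209a and Xcr1 at 0. Border macrophage markers summed to 0.127 against 0.104, with Cd163 and Cbr2 at 0. Neutrophil markers summed to 0.329 against 0.452, and among the selected cells this was 0.613 in set E and 0.106 in set D. Markers of astrocytes (0.339 against 0.326), neurons (0.0370 against 0.0503), endothelial cells (0.345 against 0.638), pericytes (0.156 against 0.222) and ependymal cells (0.0288 against 0.0341) were all below 1.

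Oligodendrocyte RNA was the large exception. The 8 oligodendrocyte markers summed to a mean of 8.94 in the selected cells and 13.7 in the other myeloid-marked cells, and 1123 selected cells (83.0%) reached a sum of 3. By set the sum was 7.04, 6.93, 11.8 and 5.97 in the selected cells of sets B, D, E and F, and 16.6, 10.2, 14.0, 8.69, 16.9 and 14.6 in the other myeloid-marked cells of sets A to F. Mbp, myelin basic protein, was above 0 in 92.8% of the selected cells, in 96.2% of the other myeloid-marked cells and in 86.5% of the cells with almost no myeloid signal. The source of this myelin RNA was not tested. No doublet caller was run, and 996 selected cells (73.6%) reached a sum of 5 over the markers of all other cell types, against 9021 of the other myeloid-marked cells (89.1%).

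Over all sets, 316 of 2873 genes were at least 2-fold higher in the selected cells than in the other myeloid-marked cells (11.0% of the genes compared), and 194 were at least 2-fold lower (6.75%). The median of all genes was 0.25 on the log2 scale, with 66.0% of genes above 0, so a small positive value for a gene or list is ordinary. Because nearly all selected cells lie in sets D and E and most comparison cells in the other sets, this contrast carries the difference between sets as well as that between kinds of cell. Inside set D, 193 of 2546 genes were at least 2-fold higher in the selected cells (7.58%) and 8 at least 2-fold lower (0.314%). Inside set E these were 237 of 2530 genes (9.37%) and 13 (0.514%). The comparison cells inside sets D and E were mostly cells with a marker sum below 3 that had fewer genes, with medians of 550.5 genes in the selected and 416.5 in the other cells of set D, and 557 and 405 in set E.

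The medians of all genes inside the sets were 0.33 in set D and 0.38 in set E. With values scaled to 10000 per cell these fell to 0.14 and 0.19, and the pooled one to 0.16. The counts then became 88 higher and 13 lower in set D, and 129 higher and 29 lower in set E. Of all genes, 79.1% were above 0 inside set D and 81.1% inside set E, so most genes of any list stand above 0 there. List values below are read against the all-gene median of their own contrast.

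The pooled differences were set beside the values inside sets D and E. Of the 316 genes at least 2-fold higher over all sets, 299 (94.6%) were higher in the selected cells in both set D and set E, where most genes are higher, and only 27 of them by 2-fold or more in both. Of the 194 genes at least 2-fold lower over all sets, 54 (27.8%) were lower in both sets, 10 of them by 2-fold or more, and 67 were higher in both. With sets D and E alone, given equal weight, the count of higher genes was 136 and the count of lower genes was 4.

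Homeostatic surface and secreted genes were higher in the selected cells over all sets and inside sets D and E. Of 31 listed genes compared over all sets, 24 were at least 2-fold higher and none lower, with a median log2 ratio of 1.55. Inside set D all 31 were above 0, 6 of them at 2-fold or more, with a median of 0.78. Inside set E all 30 were above 0, 9 at 2-fold or more, with a median of 0.74. After scaling to 10000 per cell the medians were 0.58 in set D and 0.55 in set E, still above the all-gene medians of 0.14 and 0.19. Summed per 10000, the list stood at 1021 in selected and 945 in other cells of set D. In set E these sums were nearly equal, at 990 and 987, and Cst3 is the main part of them.

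Among receptors, Gpr34 had a mean of 1.495 in the selected cells and 0.235 in the other myeloid-marked cells, a ratio of 6.35. Its means in the selected cells were 0.653, 1.63, 1.41 and 1.24 in sets B, D, E and F. Inside set D the selected cells had 1.63 and the other myeloid-marked cells 0.709, and inside set E 1.41 and 0.687. The difference was thus past 2-fold within each set in the values as deposited. The other cells had lower median totals, at 852 against 1054 in set D and 858 against 1065 in set E. Whether Gpr34 stays past 2-fold with scaling is not given here. P2ry13, an ADP receptor related to P2ry12, had 0.290 against 0.140 in set D and 0.283 against 0.1003 in set E. Csf1r, the receptor for the survival factors CSF1 and IL-34, had 2.98 against 0.804 over all sets (3.71-fold), and inside sets D and E its ratios were 1.59 and 1.58. Csf1r was lowest in the selected cells of set B, at 1.53, against 2.66 in set F and 3.02 and 3.07 in sets D and E. Tgfbr1, a TGF-β receptor, was 2.33-fold higher over all sets, 1.84-fold in set D and 2.38-fold in set E.

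Adhesion and transport genes followed. Selplg, 4.45-fold higher over all sets, had 1.47 against 0.729 in set D and 1.48 against 0.720 in set E. Adgrg1, an adhesion G-protein-coupled receptor 4.33-fold higher over all sets, had 0.227 against 0.0971 in set D and 0.232 against 0.103 in set E. Slc2a5, a fructose transporter, had 0.177 against 0.0197 over all sets (8.98-fold), with ratios of 2.27 in set D and 1.94 in set E. For these 3 genes the larger pooled ratio came down to near 2-fold inside the sets. Slco2b1, an organic anion transporter, went the other way, with a pooled ratio of 1.93 against 2.90 in set D and 2.18 in set E. Entpd1, the ectonucleotidase CD39 that breaks down extracellular ATP, was 3.39-fold higher over all sets, 1.48-fold in set D and 2.77-fold in set E.

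Some secreted genes of the homeostatic list differed little between the cells inside sets D and E. Cst3 had means of 26.3, 75.4, 73.6 and 69.4 in the selected cells of sets B, D, E and F, and 11.1, 10.8, 11.0, 65.3, 70.0 and 27.1 in the other myeloid-marked cells of sets A to F. Its pooled ratio of 4.59 became 1.16 in set D and 1.05 in set E, where selected and other cells were close. Sparc, a secreted matrix protein, likewise had a pooled ratio of 3.67 and ratios of 1.08 and 1.05 inside sets D and E. Olfml3, a secreted olfactomedin-like protein, was 3.42-fold higher over all sets, 1.97-fold in set D and 1.61-fold in set E. Cst3 and Sparc were thus high in both kinds of cell in sets D and E, whereas in sets B and F Cst3 was higher in the selected cells than in the others.

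**Figure D3:**
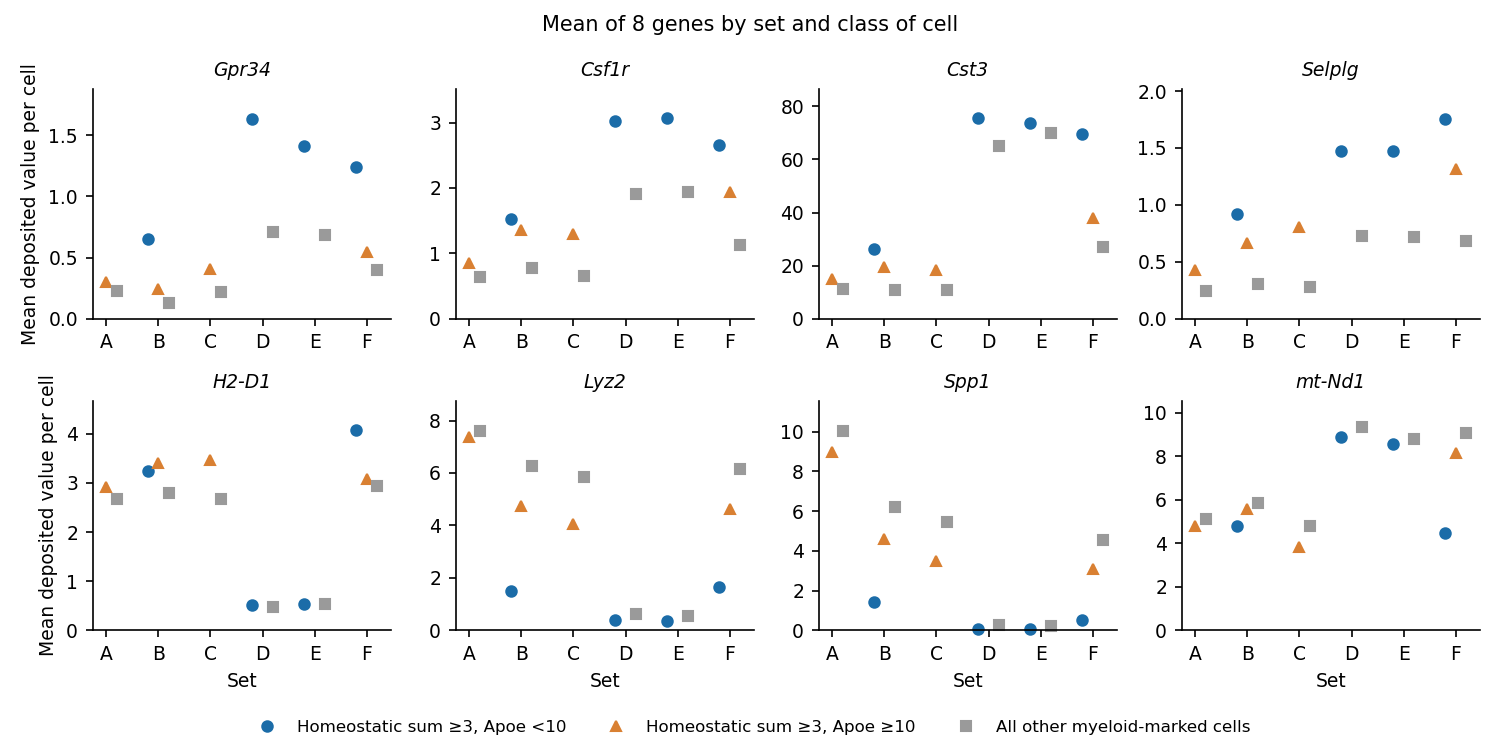
Mean deposited value per cell (vertical axis) of Gpr34, Csf1r, Cst3, Selplg, H2-D1, Lyz2, Spp1 and mt-Nd1 by set; circles, selected cells in sets B, D, E and F; triangles, homeostatic cells with Apoe at least 10 in sets A, B, C and F; squares, all other myeloid-marked cells, which include the triangles. Gpr34 is higher in the circles than in the squares in sets B, D, E and F, whereas Cst3 in set D (75.4 in selected and 65.3 in other cells) and set E (73.6 and 70.0) is close in both kinds of cell.

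The 15 largest pooled ratios, among genes that averaged at least 0.1 and had 1 direction in sets D and E, were held by genes of several roles. Hpgd, the enzyme that inactivates prostaglandins, had 1.00 against 0.0977 (10.3-fold), yet 1.46-fold in set D and 1.53-fold in set E. Abca9, a transporter of the ABC family, was 7.80-fold higher over all sets, 1.98-fold in set D and 2.09-fold in set E. Fscn1, the actin bundler fascin, was 6.11-fold higher over all sets, 1.26-fold in set D and 1.89-fold in set E. Klk8, a secreted serine protease, was 6.71-fold higher over all sets, 1.72-fold in set D and 1.26-fold in set E. Crybb1, a crystallin found in microglia, was 4.31-fold higher over all sets, 1.72-fold in set D and 1.21-fold in set E. Fam102b (5.46-fold), mt-Nd6 (5.05-fold) and Gm28438 (4.37-fold) were also among the 15, the last by a direction in set E that rests on 1 cell, with Sall1, Gpr34, P2ry13, Cst3, Selplg and Adgrg1.

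Transcription factors of microglia differed among themselves. Of 23 compared over all sets, 4 were at least 2-fold higher and 5 at least 2-fold lower, beside 11.0% and 6.75% of all genes. Their median was 0.08, which became -0.03 after scaling to 10000 per cell. Inside set D the median of 16 was 0.59, with 2 at 2-fold or more, beside 7.58% of all genes. Inside set E it was 0.77, with 5, beside 9.37% of all genes. Sall1, which maintains microglial identity, was 4.22-fold higher over all sets, 1.75-fold in set D and 2.27-fold in set E. Maf was 4.04-fold higher over all sets, 1.81-fold in set D and 1.92-fold in set E, and Mef2c 2.62-fold, 1.44-fold and 1.64-fold. Spi1, the lineage factor PU.1, had 0.382 against 0.212, and Irf8, its partner, 0.353 against 0.234. The factors at least 2-fold lower over all sets included the stress-induced Atf3 (7.70-fold lower), Id2, an inhibitor of helix-loop-helix factors (5.62), Mitf, a factor of lysosomal genes (3.54), and Runx1 (2.11).

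Of 2282 genes that could be compared in both set D and set E, 44 were at least 2-fold higher in the selected cells in each (1.93%), and 3 at least 2-fold lower. These counts and the ratios below are of values as deposited and were not repeated with scaling. Scaling lowered the counts of higher genes inside the single sets to 88 in set D and 129 in set E. Besides genes given above, the 44 held Il6ra and Il6st, the chains of the IL-6 receptor, with ratios of 2.63 and 3.03 in set D and 2.24 and 2.98 in set E. Ifngr1, a chain of the interferon-γ receptor, had 0.573 against 0.269 in set D and 0.583 against 0.274 in set E. Tmem173, the DNA sensor adaptor STING, had 0.2003 against 0.0543 in set D and 0.234 against 0.0885 in set E. Tlr7, a sensor of single-stranded RNA, had ratios of 2.49 in set D and 2.62 in set E, and Ptafr, the receptor for platelet-activating factor, 2.79 and 2.82. Abca1, which exports cholesterol to apolipoproteins, had 0.108 against 0.0371 in set D and 0.121 against 0.0560 in set E, but over all sets it was lower, at 0.117 against 0.192. Cebpa, a myeloid transcription factor, had ratios of 2.50 in set D and 2.91 in set E. These genes were named after their values had been seen.

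The 3 genes at least 2-fold lower in both sets were Spp1, Flt1 and Ptprg. Spp1 had 0.0616 against 0.263 in set D and 0.0463 against 0.212 in set E. Flt1, a VEGF receptor of endothelial cells, had 0.0728 against 0.149 in set D and 0.0766 against 0.162 in set E. Ptprg, a receptor tyrosine phosphatase, had 0.0490 against 0.123 in set D and 0.0570 against 0.156 in set E. For Spp1 both kinds of cell were low in sets D and E, since in the other myeloid-marked cells it was 10.0, 6.23, 5.47 and 4.57 in sets A, B, C and F.

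Genes of the disease-associated state were far lower in the selected cells over all sets, and inside sets D and E their medians were close to 0, below the all-gene medians there. Of 22 compared, 14 were at least 2-fold lower and none higher over all sets, with a median log2 ratio of -3.22. Inside set D the median of 13 was -0.01 and inside set E 0.02, with 1 gene at least 2-fold lower in each, and with scaling these were -0.18 and -0.15. The summed level of the list was 24.8, 13.5, 13.5 and 19.3 in the selected cells of sets B, D, E and F, against 48.8, 38.0, 36.6, 13.02, 12.6 and 35.8 in the other myeloid-marked cells of sets A to F. The mean of the list was thus low in both kinds of cell in sets D and E. The 7 raised-Apoe homeostatic cells in each of these sets had higher means, at 36.9 and 27.3.

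Spp1 had the lowest pooled ratio of the ranked genes, with a mean of 0.115 in the selected cells and 7.17 in the other myeloid-marked cells (62.6-fold lower). Its means in the selected cells were 1.43, 0.0616, 0.0463 and 0.517 in sets B, D, E and F. Lgals3, the secreted lectin galectin-3, had 0.01996 against 0.966 (48.4-fold lower), Fabp5, a fatty acid-binding protein, 0.0613 against 1.28 (20.9-fold lower), and Cst7, the inhibitor cystatin F, 0.0237 against 0.589 (24.9-fold lower). Inside set D the ratios of Lgals3, Fabp5 and Cst7 were 0.173, 0.588 and 0.218, and inside set E 0.242, 0.523 and 0.378. The ranking required 1 direction in both sets, and Lgals3 and Cst7 were below the average of 0.05 there (in set D 0.00840 against 0.0486 and 0.00560 against 0.0257), so these ratios are uncertain. Lyz2, lysozyme, had 0.439 against 6.36 (14.5-fold lower), with ratios of 0.634 in set D and 0.650 in set E. Clec7a, the β-glucan receptor, was 12.95-fold lower and Lpl, lipoprotein lipase, 15.1-fold lower over all sets. Wfdc17 (33.4-fold lower), the chemokine gene Ccl4 (25.4), Lgals1 (13.2), the intermediate filament gene Vim (8.12), Crip1 (6.60), Pld3 (5.23) and the actin-capping gene Capg (4.83) completed the 15 lowest with Cd74.

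Antigen presentation genes followed the sets. For MHC class II, 5 of 8 genes were at least 2-fold lower over all sets with a median of -2.99, but the medians of the 3 genes compared in set D and the 4 in set E were 0.50 and 0.48. Cd74, the class II invariant chain, had 2.39, 0.0280, 0.0267 and 1.28 in the selected cells of sets B, D, E and F, and 0.0314 and 0.0649 in the other myeloid-marked cells of sets D and E. For MHC class I, 6 of 11 genes were at least 2-fold lower over all sets with a median of -1.02, against 0.29 in set D and 0.27 in set E. H2-D1, a classical class I heavy chain, had 3.24, 0.511, 0.529 and 4.07 in the selected cells of sets B, D, E and F, against 0.483 and 0.546 in the other myeloid-marked cells of sets D and E. The few selected cells of sets B and F thus had H2-D1 and Cd74 well above the selected cells of sets D and E. H2-K1, another class I gene, also differed between these sets in cells with almost no myeloid signal. Its means there were 1.15 and 0.541 in sets B and F, against 0.0694 and 0.0651 in sets D and E. The part of this in the selected cells was not tested.

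Interferon-stimulated genes and chemokines had the same form. Of 9 interferon-stimulated genes, 7 were at least 2-fold lower over all sets with a median of -1.68, while inside set D the median of 4 was -0.13 and inside set E 0.05, the last of which became -0.12 with scaling. Of 9 chemokine genes, 7 were at least 2-fold lower over all sets with a median of -3.50, and 2 could be compared in sets D and E, with medians of 0.05 and -0.03, the first of which became -0.15 with scaling. All 9 genes of infiltrating monocytes were at least 2-fold lower over all sets, with a median of -3.86.

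Lysosomal and complement genes stood below the all-gene median over all sets and the Trem2 and Tyrobp signalling genes close to it. The medians of the complement genes were -0.08 over all sets, 0.33 in set D and 0.25 in set E. Of 21 lysosomal cathepsin and cystatin genes, 3 were at least 2-fold higher and 2 lower over all sets, with a median of -0.26. These shares are near the 11.0% and 6.75% of all genes. Inside sets D and E the medians of 20 were 0.45 and 0.42, with 19 of 20 above 0 in each, against 79.1% and 81.1% of all genes. For the Trem2 and Tyrobp signalling genes the median was 0.28 over all sets, 0.50 in set D and 0.86 in set E. Trem2, a lipid-sensing receptor, had 1.94 in the selected cells and 1.62 in the other myeloid-marked cells, with ratios of 1.16 and 1.14 inside sets D and E. C1qb and C1qc, which the rule did not use, had 8.95 against 5.75 and 5.32 against 3.47, and ratios of 1.13 and 1.20 in set D. Fc and phagocytic receptor genes, taken as 1 list, had a median of 0.11 over all sets, which became -0.00 after scaling, against 0.62 in set D and 0.79 in set E.

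Glycolysis genes were lower over all sets, and inside sets D and E their medians were above 0 and below the all-gene medians. Of 12 compared, 8 were at least 2-fold lower and 1 higher, with a median of -1.08, while the medians inside sets D and E were 0.21 and 0.19, and that of set D became -0.01 with scaling. The gene that was higher was Hk2, a hexokinase, with 0.301 against 0.0955 (3.15-fold), and ratios of 1.85 in set D and 1.93 in set E. Aldoa, an aldolase, had 0.303 against 0.783 over all sets and ratios of 0.908 in set D and 1.17 in set E. Immediate early genes, which transcription blockers hold down during dissociation, had medians of 0.23 over all sets, 0.50 in set D and 0.65 in set E, and Fos, a member of the list, was at 0 in all selected cells and at 0.0082 in the other myeloid-marked cells. Fth1, the ferritin heavy chain that stores iron, had 16.8 against 32.0, and it differed between the selected cells of set E (21.3) and set D (13.2) as it did between their other myeloid-marked cells (29.5 and 16.1).

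**Figure D4:**
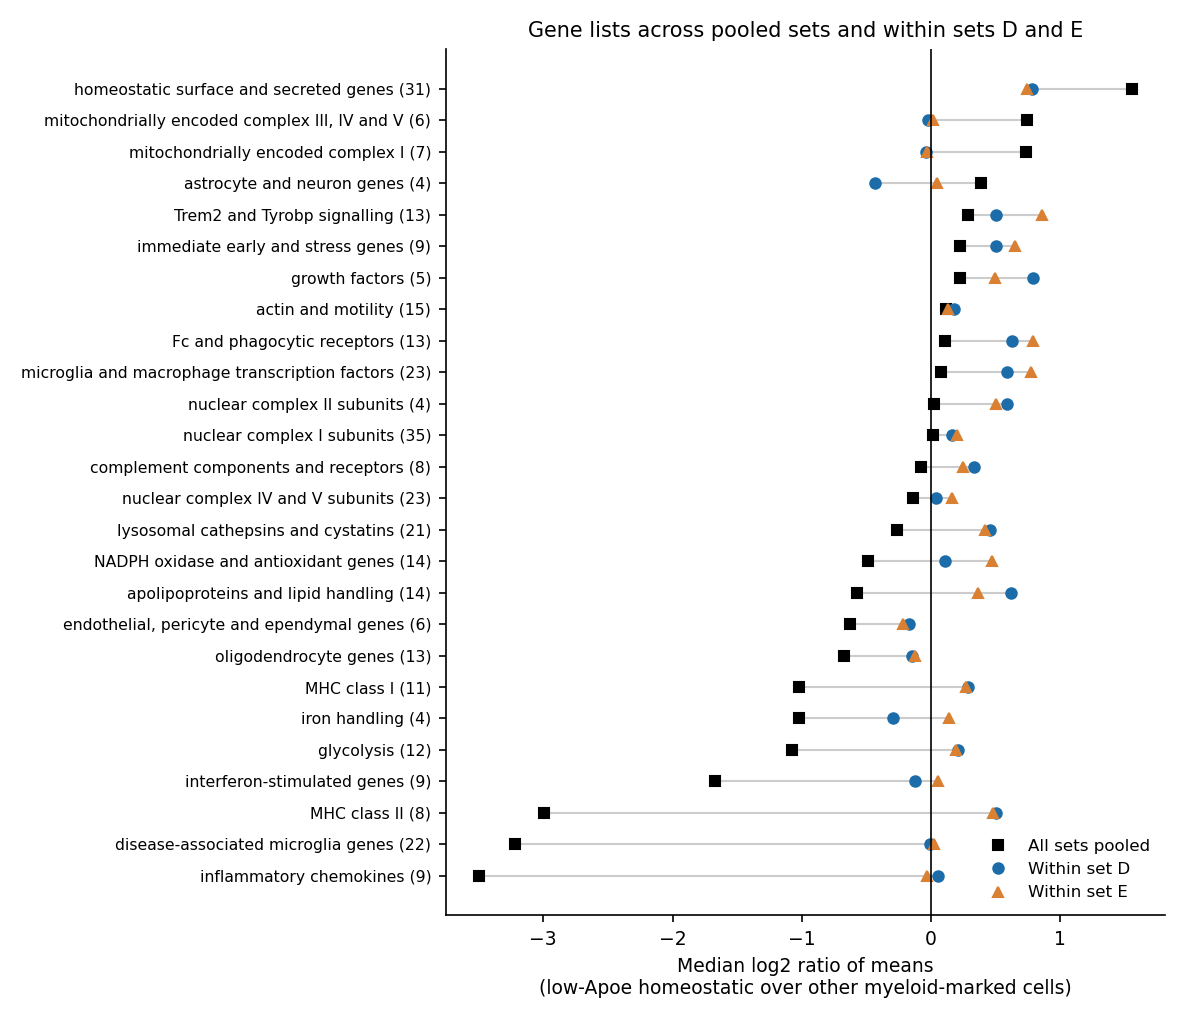
Median log2 ratio (horizontal axis) of selected over other myeloid-marked cells for 26 gene lists (rows, number of genes in brackets); squares, all sets; circles, inside set D; triangles, inside set E. Homeostatic genes stand to the right in all 3 contrasts (1.55, 0.78 and 0.74), whereas disease-associated genes stand at -3.22 over all sets and at -0.01 and 0.02 inside sets D and E (-0.18 and -0.15 with values scaled to 10000 per cell).

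Mitochondrially encoded complex I genes were above the all-gene median over all sets and below it inside sets D and E. Of 7 compared over all sets, 3 were at least 2-fold higher, with a median log2 ratio of 0.74, against -0.04 in set D and -0.03 in set E, which became -0.20 and -0.21 with scaling. Their summed level was 13.7, 28.0, 28.0 and 14.1 in the selected cells of sets B, D, E and F, against 17.0, 18.8, 15.8, 29.5, 28.9 and 29.3 in the other myeloid-marked cells of sets A to F. mt-Nd1, a core subunit of complex I, had means of 4.78, 8.88, 8.56 and 4.48 in the selected cells of sets B, D, E and F. mt-Nd6, the gene that carries the mutation in Nd6 mice, had 0.184, 0.619, 0.604 and 0.207 in the selected cells of sets B, D, E and F, against 0.0838, 0.0816, 0.0653, 0.580, 0.522 and 0.145 in the other myeloid-marked cells of sets A to F. Its ratios inside sets D and E were 1.07 and 1.16. Its level was not used to place a cell in a genotype. Of 35 nuclear-encoded complex I subunits, none was 2-fold higher or lower over all sets, with a median of 0.01 (-0.09 with scaling), and the medians inside sets D and E were 0.16 (-0.02 with scaling) and 0.20 (0.03 with scaling).

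A single mitochondrial gene was split between 2 names in a way that followed the sets, a pattern described after its values had been seen. mt-Nd3, a complex I subunit gene at chrM:9459-9806 on the plus strand of GRCm38, is almost identical to Gm28438, an unprocessed pseudogene at chr1:24612775-24613119 on the minus strand. The GENCODE transcripts of both were identical at 344 of the 345 bases compared from the first base (99.7%), and the single difference was T3C, with the mt-Nd3 base first and positions counted from the transcript's 5′ end. The first 30 bases of each are shown because they hold the only base that differs over the stretch compared, which is in capitals, while the last bases of the longer mt-Nd3 transcript were not compared.
mt-Nd3: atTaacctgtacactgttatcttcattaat
Gm28438: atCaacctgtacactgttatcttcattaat

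In the selected cells of set D, Gm28438 was above 0 in 59.8% and mt-Nd3 in 0.560%. In those of set E, mt-Nd3 was above 0 in 58.3% and Gm28438 in 0.178%. The same split ran through all cells, with mt-Nd3 in sets A, C and E and Gm28438 in sets B, D and F, in myeloid-marked cells and in cells with almost no myeloid signal alike. The values of such near-identical copies are uncertain taken singly. Their sum was 0.510, 0.938, 0.868 and 0.414 in the selected cells of sets B, D, E and F, and the ratio of selected to other myeloid-marked cells was 3.23 over all sets, 1.09 in set D and 1.15 in set E. As given above, the sizes of sets A, C and E add up to the paper's number of WT cells. Those of sets B, D and F add up to its number of Nd6 cells. The cause of the split was not tested, and the split was not used to place any set in a genotype or state.

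The selected cells of sets E and D were otherwise close to each other. Of 2871 genes compared, 16 were at least 2-fold higher in set E (0.557%) and 7 at least 2-fold lower (0.244%), and the median of all genes was -0.00. The median log2 ratio of set E over set D was 0.02 for the homeostatic genes, -0.05 for the disease-associated genes and 0.06 for the mitochondrially encoded complex I genes. Among the genes that differed, named here after their values had been seen, the neutrophil gene S100a9 had 0.239 in set E and 0.0126 in set D, and S100a8 had 0.214 and 0.00560. The haemoglobin gene Hbb-bs had 1.01 in set E and 0.221 in set D, and Hba-a1 0.365 and 0.0924. The calcium-binding glial gene S100b had 0.909 in set E and 0.388 in set D, and Ptgds, a prostaglandin synthase of oligodendrocytes and meninges, 0.348 and 0.954. S100a9 (0.319 and 0.00286) and Hbb-bs (0.982 and 0.237) differed likewise between the other myeloid-marked cells of sets E and D.

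The selected cells of sets B and F stood closer to the Apoe limit and were compared with the raised-Apoe homeostatic cells of their own sets. In set B the 49 selected cells had 47 of 717 genes at least 2-fold higher (6.56%) and 15 at least 2-fold lower (2.09%) than 391 raised-Apoe cells. In set F the 29 selected cells had 72 of 651 genes at least 2-fold higher (11.1%) and 28 lower (4.30%) than 153 raised-Apoe cells. The all-gene medians were 0.28 and 0.27. With so few cells, single genes are uncertain.

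In these comparisons Gpr34 was again higher, with 0.653 against 0.240 in set B and 1.24 against 0.549 in set F. Homeostatic genes as a list had medians of 0.37 in set B and 0.56 in set F, beside all-gene medians of 0.28 and 0.27. Of these genes 4 of 21 and 2 of 24 were at least 2-fold higher, in set F a share no larger than the 11.1% of all genes. Cst3 had 26.3 against 19.6 in set B and 69.4 against 37.9 in set F. Disease-associated genes had medians of -0.40 in set B and -0.58 in set F, with 15 of 16 and 11 of 14 below 0. Spp1 had 1.43 against 4.62 in set B and 0.517 against 3.10 in set F. Its share in the selected cells had an interval overlapping that of cells with almost no myeloid signal, as given above. Lyz2 had 1.51 against 4.74 in set B and 1.66 against 4.61 in set F.

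MHC class I genes did not follow Apoe there, with medians of -0.01 in set B and 0.10 in set F. H2-D1 had 3.24 in selected and 3.41 in raised-Apoe cells of set B, and 4.07 and 3.07 in set F. Class II genes had medians of -0.88 and -0.71, and H2-Aa, a class II chain, had 0.469 against 1.33 in set B and 0.241 against 0.595 in set F. In set B all 8 interferon-stimulated genes compared were above 0, against 73.6% of all genes, with a median of 0.76. Among these, Ifi27l2a had 2.47 against 0.974, Isg15, a ubiquitin-like modifier, 0.490 against 0.120, and Bst2, the restriction factor tetherin, 1.06 against 0.547 in set B. Of 10 listed proliferation genes, 4 could be compared in set B. Of these, 3 were at least 2-fold higher, against 6.56% of all genes there, and Tubb5, a tubulin, had 0.898 against 0.448. The markers of proliferating cells summed to 0.898 in the selected cells of set B, against 0.318 in that set's other myeloid-marked cells. Over all sets only 12 selected cells reached a sum of 3 for these markers, so the mean in set B can rest on few cells. Mitochondrially encoded complex I genes compared there were all below 0, with medians of -0.31 in set B and -0.87 in set F, and mt-Nd1 had 4.48 in selected and 8.17 in raised-Apoe cells of set F. In set F the oligodendrocyte list was also lower, with a median of -1.09 and 4 of 7 genes at least 2-fold lower, and its part in the other set F values was not tested.

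Within the selected cells, those with a trace of Apoe had higher means of Spp1 and Lyz2. Spp1 was above 0 in few selected cells, 6.02% in set D and 4.63% in set E, and whether this is free RNA was not tested. Cells of set D with Apoe at 1 to 9 (262 cells) had a mean Spp1 of 0.126, against 0.0243 in those with Apoe at 0 (452 cells), and in set E (199 and 362 cells) these were 0.0653 and 0.0359. Lyz2 had 0.489 against 0.323 in set D and 0.432 against 0.309 in set E. Gpr34 ran the other way, with 1.36 against 1.79 in set D and 1.35 against 1.44 in set E. Cst7 differed in direction, with 0.0115 against 0.00221 in set D and 0 against 0.0138 in set E. The disease-associated list summed to 14.4 against 12.9 in set D and was nearly level in set E, at 13.7 against 13.4. The homeostatic list summed to 99.3 against 109 in set D and 101 against 104 in set E, where Cst3 is the main part of the sum. Median genes per cell were 532.5 against 568 in set D and 562 against 552 in set E.

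A higher marker sum went with more genes in a cell. In set D, the 180 selected cells with a marker sum of at least 8 had a median of 644 genes and a median total of 1140, against 474.5 genes and 940 in the 126 cells at a sum of 3. Gpr34 had 2.48 against 1.08 and Csf1r 3.97 against 2.40 between these cells. In set E, 126 cells with a sum of at least 8 had a median of 615 genes, against 499 in 112 cells at 3, with Gpr34 at 2.04 against 1.06 and Csf1r at 3.91 against 2.59. Mitochondrially encoded complex I genes, summed per 10000, were at 243 against 320 in set D. The share of mitochondrial values also differed between sets among all the selected cells, at 3.52%, 9.17%, 9.97% and 3.86% in sets B, D, E and F. The part of genes per cell in the homeostatic differences inside sets D and E was not tested beyond the scaling given above.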

How the data were processed

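Central nervous system cells of 6 droplet libraries were measured. The authors aligned reads to GRCm38 (Ensembl 93) with Cell Ranger 7.1.0, counting intronic reads too, then merged and filtered the cells in Seurat 4.3.0.1. The deposited table was treated as a score per gene and cell, since its whole numbers have totals too close together for raw UMI counts, and the step that made them is not given in the sources used here. Cells could not be tied to single libraries by a label, and no genotype or disease comparison, test or p-value was computed. The depth is unknown.

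Means per cell were compared as ratios for genes whose average of the 2 groups' means was at least 0.05 (0.2 in sets B and F), leaving out the 8 rule genes. The members, gene lists and comparisons were chosen with earlier results of these data known. Named genes were list members that reached 0.05, and the 15 highest and 15 lowest ratios among genes averaging at least 0.1 with 1 direction in sets D and E. Genes specific to a sex and immunoglobulin genes were left out of this ranking. Genes named outside this rule are marked in the text, and some genes covered by it are not reported here. No doublet caller was run, and leaving out cells with other types' markers was an alternative. Sets with at least 50 cells in each group were compared internally, and sets B and F with fewer. The ratio and the count of genes past 2-fold were tested on simulated data. Transcript sequences came from GENCODE on GRCm38. Python 3.11.15, numpy 2.4.6, pandas 2.3.3, scipy 1.17.1 and matplotlib 3.10.9 were used. Alternatives changed the rule's limits, the cells, the low-value filter, the scaling and the weight of sets.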

Additional observations from a re-analysis of the deposited data

How the results depend on the processing

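No paired analysis was possible because no label links a cell to a library or a replicate number. The 1353 selected cells became 1252 with Apoe below 5, 1549 with Apoe below 20, 1640 and 812 with marker sums of at least 2 and 5, 1259 with a myeloid sum of at least 12, 1240 under the study's stated filters and 357 without cells carrying other types' markers. Leaving out each set in turn gave 639 to 1353 cells, the lowest without set D, and 792 without set E. Without the Apoe limit, an alternative chosen after seeing the data, 2362 cells met the rule.

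The 316 higher genes over all sets became 136 with equal weight of sets D and E, 210 on percent of cells, 163 against raised-Apoe homeostatic cells alone, 147 without the Apoe limit, and 534, 190 and 1701 with averages of at least 0.02, at least 0.1 and no filter. The 194 lower genes became 4 with equal weight, 67 without the Apoe limit, and 547, 79 and 2701 under those filters. With equal weight of sets D and E the medians of 5 lists changed sign, to 0.049 for disease-associated genes, 0.47 for MHC class II, 0.18 for MHC class I, 0.0095 for chemokines and 0.15 for glycolysis. By construction this setting leaves out the other sets. Over 11 lists with a pooled median of 2-fold or more, 239 of 244 alternative values kept their sign. The 5 that changed are those above. Every other setting kept the contrast between sets, so this count cannot show whether the signs hold without that contrast. The homeostatic median ranged over alternatives from 0.72 to 1.64 over all sets, 0.58 to 0.96 in set D and 0.55 to 0.83 in set E.

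The alternatives inside sets were chosen after seeing the data. In set D the 193 higher genes became 458 without cells carrying other types' markers, 88 with scaling and 53 with an average of at least 0.1. The 8 lower genes became 5 with Apoe below 5, 13 and 4 with marker sums of at least 2 and 5, 102 without those cells, 13 with scaling, 3 with the average and 3 on percent of cells. In set E the 237 higher genes became 129 with scaling and 59 with the average, and the 13 lower genes 29 and 8 with marker sums of at least 2 and 5, 25 with a myeloid sum of at least 5, 29 with scaling, 4 with the average and 5 on percent of cells. Set E without cells carrying other types' markers had too few cells for a value. In set B the 47 higher genes became 18 with Apoe below 20 and 31 on percent of cells, where the 15 lower genes became 5. In set F the 72 higher genes became 39 with Apoe below 20 and 36 on percent of cells. The cause of these changes was not tested.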
